A study of Mus musculus with 20 samples.

Results

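The genes described here encode proteins of the nucleolus and of small nucleolar ribonucleoproteins (snoRNPs). They are Ncl, Npm1, Nop56, Nop58, Fbl, Dkc1, Ppan, Nolc1, Nop2 and Gnl3, 10 of the 8397 genes in the deposited intron table, and the rule that picks them is this list of names, with no measured value in it; the list itself was drawn up with earlier results of these data known. Together they hold 98 of the 68794 introns in that table, and 41 of the 6537 introns for which splicing intermediates were counted. The nucleolus is where ribosomal RNA is transcribed, modified, cut and assembled into ribosomal subunits. Small nucleolar RNAs (snoRNAs) guide the modification of ribosomal RNA: box C/D snoRNAs guide methylation and box H/ACA snoRNAs guide pseudouridylation, each held by its own set of core proteins. Most vertebrate snoRNAs are cut out of introns of other genes, often of genes that themselves encode ribosome biogenesis proteins, so the introns of these genes are both removed sequence and, in places, a source of snoRNA.

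The cells were MEL cells, a mouse erythroleukemia line that makes hemoglobin when treated with dimethyl sulfoxide (DMSO). The uninduced group was wild-type MEL cells with no inducer. The induced group was wild-type MEL cells kept in 2% DMSO for 5 days. In both groups RNA was taken from chromatin, depleted of ribosomal RNA and of polyadenylated RNA, and read with PacBio long-read sequencing. Each group comprised 4 libraries, from 2 biological replicates that were each run on 2 instruments. The remaining 12 of 20 samples (other genotypes, other methods) were not analysed here.

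The deposited tables give 1 pooled value per intron and group, so there is no spread between replicates, and each test below compares the uninduced pool of libraries with the induced pool and not the conditions. Intervals are 95% Wilson intervals unless named otherwise and cover counting error only. One long read can span several introns, and each intron it spans is counted as 1 observation; counts at introns of the same gene are therefore not independent, and intervals over a whole gene are too narrow. The uninduced pool held 416379 observations and the induced pool 279371. The genes described here took 4223 of them uninduced and 1386 induced. As a check of the labels, 5 erythroid marker genes took 4.12 to 62.0 times larger shares of the induced pool (Hba-a1, Hba-a2, Hbb-bs, Hbb-bt and Alas2), and the anion exchanger gene Slc4a1 went from 0 to 817 observations. In bulk samples such as these, fewer cells of a type and less RNA per cell cannot be told apart.

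The reads were concentrated in a few of these genes. Npm1 had 2258 observations uninduced and 400 induced, and Nop56 had 1217 and 633. Gnl3 had 224 and 64, Ncl 169 and 84, Ppan 152 and 132, Nop2 93 and 35, and Nolc1 55 and 14. Nop58 had 31 and 16, Dkc1 22 and 6, and Fbl 2 and 2. At least 10 reads, the minimum used for comparisons, were present at 47 introns of 9 genes uninduced. Induced, that number was 32 introns, all in Npm1, Nop56, Ppan and Ncl. Fbl had no such intron in either pool.

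A smaller share of nascent observations fell in these genes after induction. Their share was 1014.2 per 100000 observations uninduced and 496.1 per 100000 induced, a ratio of 0.489. Npm1, which encodes nucleophosmin, a histone and ribosome chaperone of the granular part of the nucleolus, accounted for most of that difference: without Npm1, a comparison chosen after its values were seen, the ratio was 0.748. Taking only the deepest intron of each gene, so that a read is counted about once per gene, gave a ratio of 0.526 with an exact interval of 0.451 to 0.612.

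**Figure D1:**
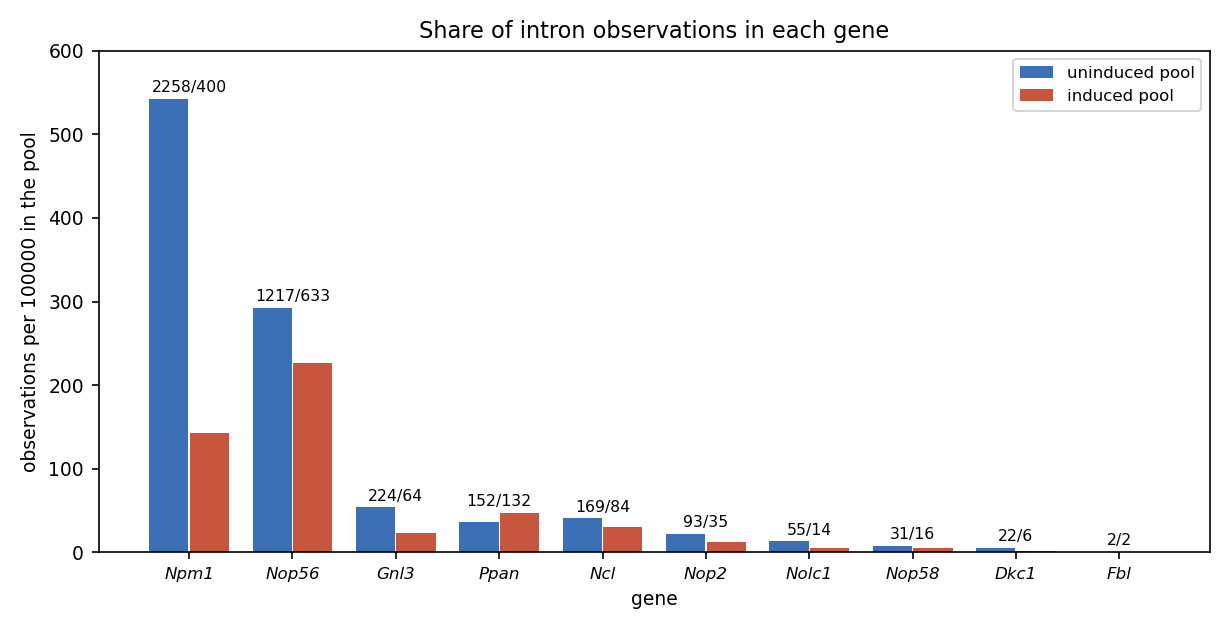
Observations per 100000 in each pool (y axis) for the 10 genes (x axis), with the number of observations in the uninduced and induced pool printed above each pair of bars. The bars are single pooled values with no replicate error. Npm1 went from 542.3 to 143.2 per 100000 and Ppan from 36.5 to 47.3.

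Ratios were formed for the 7 genes with at least 50 observations over both pools. The ratios of induced to uninduced share were 0.264 for Npm1, 0.379 for Nolc1, 0.426 for Gnl3, 0.561 for Nop2, 0.741 for Ncl, 0.775 for Nop56 and 1.29 for Ppan. Of those 7 genes, 3 had a ratio under 1/2 and 0 had a ratio over 2. Among all 2961 genes with as many observations, 24.0% were under 1/2 and 18.5% over 2. The median ratio was 0.561 over the 7 genes and 0.955 over all 2961. Another 54 ribosome biogenesis genes (RNA polymerase I subunits, processome and assembly factors) had a median ratio of 0.937, with 15 under 1/2 and 10 over 2.

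Reads at the deepest intron of each gene gave the precision of these ratios. At Npm1 intron 1 there were 347 reads uninduced and 64 induced, a ratio of shares of 0.275 (exact interval 0.207 to 0.360). At Gnl3 intron 2 there were 29 and 7 reads, a ratio of 0.360 (0.133 to 0.839); Gnl3 encodes nucleostemin, a nucleolar GTPase of proliferating and stem cells. Both intervals lie below 1. At Nop56 intron 1 there were 169 and 98 reads, a ratio of 0.864 (0.667 to 1.12). At Ncl intron 1 there were 43 and 23 reads, a ratio of 0.797 (0.459 to 1.35). At Ppan intron 5 there were 23 and 22 reads, a ratio of 1.43 (0.758 to 2.68). For Nop56, Ncl and Ppan the interval included 1, and so it did for Nolc1, Nop2, Nop58, Dkc1 and Fbl, which had at most 19 reads at their deepest intron in either pool.

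The fraction of reads already spliced is called coSE here (co-transcriptional splicing efficiency: spliced reads over spliced plus unspliced reads at an intron). Over introns with at least 10 reads and with reads added together, coSE of these genes was 0.881 (0.871 to 0.891) in the uninduced pool and 0.835 (0.813 to 0.855) in the induced pool. The same quantity over all introns was 0.882 and 0.859. The mean over introns, which gives each intron the same weight, was 0.744 and 0.792 for these genes and 0.855 and 0.865 for all introns. Npm1, whose reads were nearly all spliced, carried more than any other gene: without it, coSE with reads added was 0.751 and 0.763. The direction of the difference between the pools therefore depended on the weighting: lower in the induced pool with all reads added, and higher as a mean over introns or without Npm1. The sets of introns also differed between the pools, with 47 introns of 9 genes uninduced and 32 introns of 4 genes induced. Introns with every read spliced were 3 of 47 (6.38%) uninduced and 9 of 32 (28.1%) induced, beside 37.0% and 43.1% of all introns; the median number of reads per intron was 29 for these genes and 16 for all introns in the uninduced pool. Introns with coSE under 0.5 were 10 of 47 (21.3%) and 6 of 32, beside 7.26% and 6.60% of all introns. Nop56 and Ppan held 9 of those 10 introns, and Dkc1 the other. Outside Nop56 and Ppan, coSE with reads added was 0.961 uninduced (29 introns of 7 genes) and 0.966 induced (14 introns of 2 genes). Npm1 held 2258 of those 2632 reads uninduced and 400 of 465 induced. The mean over the same introns was 0.873 uninduced and 0.938 induced.

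**Figure D2:**
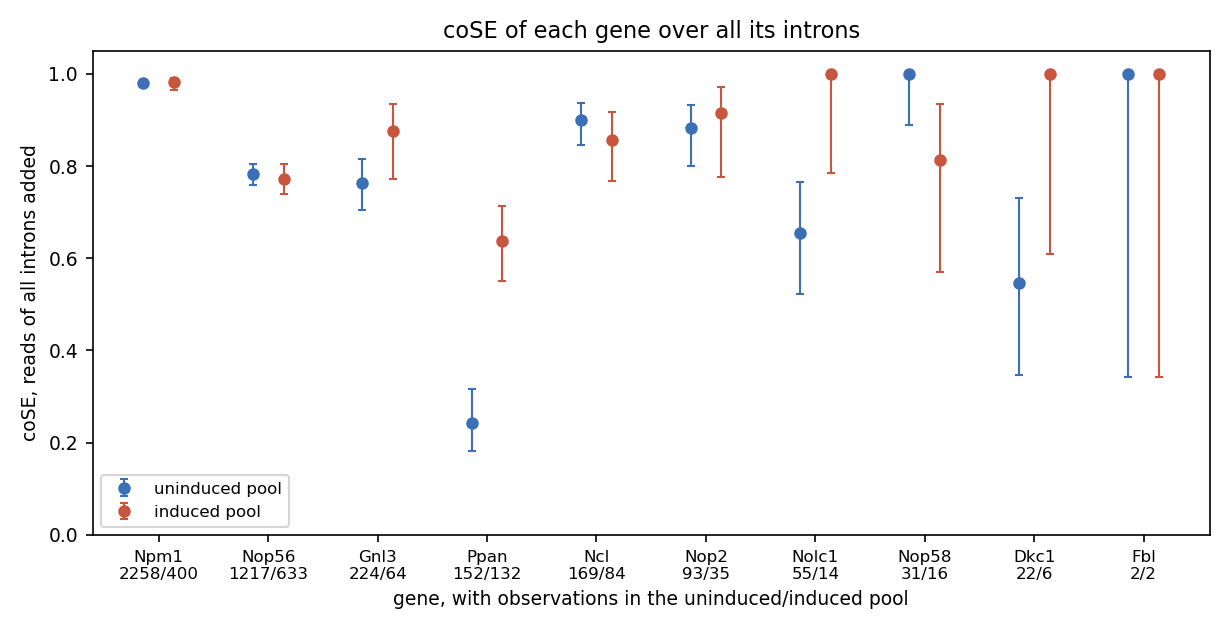
coSE of each gene with the reads of all its introns added (y axis), for the uninduced and induced pools, with the number of observations under each gene name. Points are pooled values and bars are 95% Wilson intervals, which cover counting error only; the Ppan points, 0.243 and 0.636, are the pair with many reads that lie farthest apart.

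Of these 98 introns, 31 had at least 10 reads in both pools and could be compared: 10 of Npm1, 11 of Nop56, 6 of Ppan and 4 of Ncl. After induction 16 of them had a higher coSE, 14 a lower one and 1 the same, and the median difference was 0.00297, beside 0 over all 4403 introns compared. By Fisher's exact test with Benjamini-Hochberg adjustment over all 4403 introns, 1 of the 31 passed an adjusted p of 0.05, in the direction of higher coSE after induction. The background was 1.61% of introns called in either direction and 0.363% called higher. An unadjusted p under 0.05 was found at 4 of 31 introns (12.9%), beside 7.97% of all introns. Those 4 were Ppan introns 2, 4 and 6 and Nop56 intron 10.

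Ppan had the lowest coSE of the 4 genes with introns compared in both pools. The median difference over its introns, induced minus uninduced, was 0.36, beside -0.04 for Nop56, -0.03 for Ncl and 0.01 for Npm1. It encodes the mouse relative of yeast Ssf1, a factor for maturation of the large ribosomal subunit. Its tabulated transcript, ENSMUST00000004203.5, has 10 introns within chr9:20888175-20892178 on the plus strand (mm10), all between coding exons. Over all introns, 37 of 152 observations were spliced in the uninduced pool, a coSE of 0.243 (0.182 to 0.317), and 84 of 132 in the induced pool, a coSE of 0.636 (0.551 to 0.714). All 6 introns compared had a higher coSE in the induced pool.

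Intron 2 of Ppan (chr9:20888578-20889337, 760 nt) was the intron that passed the test. Of its reads, 4 of 18 were spliced uninduced and 17 of 17 induced (adjusted p = 5.46e-04, Fisher's exact test). Intron 1, the shorter intron before it, had 6 of 8 and 17 of 17 reads spliced, too few uninduced reads for the comparison. Intron 4 had 9 of 25 and 12 of 14 reads spliced (p = 0.00631, adjusted p = 0.214, Fisher's exact test). Intron 6 had 4 of 19 and 12 of 19 (p = 0.0201, adjusted p = 0.426, Fisher's exact test). Neither passed after adjustment.

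The other compared Ppan introns had values in the same order. Intron 3 had 5 of 25 and 9 of 18 reads spliced, intron 5 had 5 of 23 and 10 of 22, and intron 7 had 2 of 16 and 6 of 18. Among introns with at least 10 reads in the pool, coSE ran uninduced from 0.0909 at intron 8 (1 of 11 reads) to 0.36 at intron 4. Induced, with the same limit, it ran from 0.333 at intron 7 to 1 at introns 1 and 2. With fewer reads, intron 8 had 1 of 7 spliced induced, intron 9 had 1 of 5 and intron 10 had 0 of 2 uninduced, and introns 9 and 10 had 0 reads induced. Since the introns of Ppan share reads, these 6 differences are not 6 separate observations. Intron 2 is annotated in 5 of the 6 transcripts that span it. The annotation holds other Ppan transcripts, including ENSMUST00000145231.2, which keeps at least introns 1, 4 and 6 to 10. Whether that transcript also keeps introns 2, 3 and 5 was not examined. How the deposited counts treat reads of such transcripts is not given in the sources used here.

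**Figure D3:**
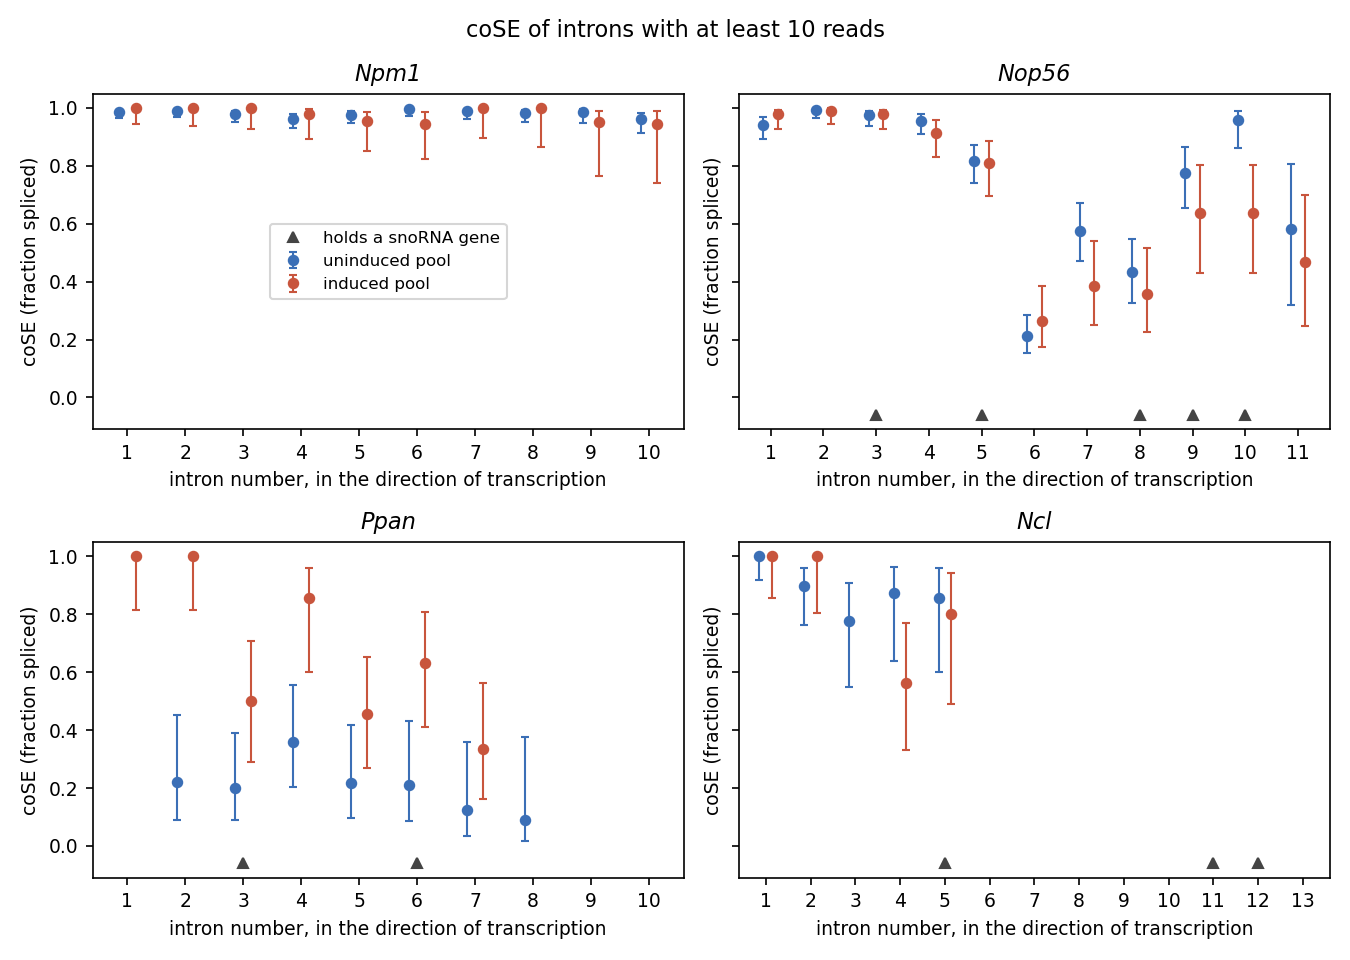
coSE (y axis) at each intron with at least 10 reads, numbered in the direction of transcription (x axis), for Npm1, Nop56, Ppan and Ncl in the uninduced and induced pools. Points are pooled values, bars are 95% Wilson intervals, and triangles mark introns that hold an annotated snoRNA gene; Npm1 lies between 0.944 and 1 throughout, Nop56 drops to 0.212 and 0.266 at intron 6, and every Ppan intron compared is higher in the induced pool.

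Introns 3 and 6 of Ppan hold annotated snoRNA genes, which is why they are shown. Intron 6 (chr9:20890716-20890904, plus strand, mm10) is printed below with the snoRNA gene Gm23008 in capitals, and the snoRNA Gm24067 of intron 3 (chr9:20889484-20889568) is printed with its TGATGA (C box) and CTGA (D box) letters in capitals. Both snoRNAs lie between 41 and 68 bases from the ends of their introns. The sequences are from the GENCODE mouse release 21 transcripts.
Ppan intron 6: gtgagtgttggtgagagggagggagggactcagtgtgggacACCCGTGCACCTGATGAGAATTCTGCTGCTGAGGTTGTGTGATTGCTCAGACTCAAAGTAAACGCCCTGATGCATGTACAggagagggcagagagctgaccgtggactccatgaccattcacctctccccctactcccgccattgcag
Gm24067: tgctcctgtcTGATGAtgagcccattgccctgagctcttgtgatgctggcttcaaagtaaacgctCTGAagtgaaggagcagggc

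Nop56 encodes a core protein of box C/D snoRNPs, which binds the snoRNA together with Nop58 and the methyltransferase fibrillarin. Along this gene coSE was high at the start and low in the middle in both pools. The tabulated transcript, ENSMUST00000103198.10, has 11 introns within chr2:130274430-130279313 on the plus strand (mm10), all between coding exons, and 5 of them hold a snoRNA gene. Introns 1 to 4 together had a coSE of 0.967 (0.95 to 0.978) uninduced and 0.968 (0.944 to 0.981) induced. Introns 6 to 8 together had 0.365 (0.314 to 0.420) and 0.324 (0.253 to 0.405). Introns 9 to 11 together had 0.831 (0.753 to 0.888) and 0.593 (0.466 to 0.709).

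The lowest coSE of Nop56 in both pools was at intron 6, a short intron of 83 nt (chr2:130276624-130276706). Of its reads, 32 of 151 were spliced uninduced, a coSE of 0.212 (0.154 to 0.284), and 17 of 64 induced, a coSE of 0.266 (0.173 to 0.385); no difference was called by Fisher's exact test (p = 0.477, adjusted p = 1), and the intervals overlap. The neighbouring intron 5, with snoRNA gene Gm24451, had 107 of 131 and 51 of 63 reads spliced. Intron 7 had 50 of 87 and 15 of 39 (p = 0.0558, adjusted p = 0.658, Fisher's exact test), and intron 8, with snoRNA gene Gm23187, had 32 of 74 and 14 of 39. The highest coSE was at intron 2, with 164 of 165 and 96 of 97 reads spliced.

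The splice sites of intron 6 are weak by the deposited scores, and they are printed for that reason. Each 5′ site is 9 bases, 3 of exon and 6 of intron, and each 3′ site is 23 bases, 20 of intron and 3 of exon, with the first or last 2 intron bases in capitals. Intron 6 is set beside intron 5, which has the highest 5′ score of the gene, and intron 9, which has the lowest 3′ score.
Nop56 intron 5, 5′ site: cagGTaagg
Nop56 intron 6, 5′ site: tggGTcagt
Nop56 intron 9, 5′ site: ctgGTatgg
Nop56 intron 5, 3′ site: gagaatgacttcctctacAGgga
Nop56 intron 6, 3′ site: tcacactaggtgtttcctAGgca
Nop56 intron 9, 3′ site: acacacgcacacacatctAGagg

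The 5′ score was 11.1 at intron 5, 4.68 at intron 6 and 7.13 at intron 9. Of the 6537 introns scored, 5.91% had a lower 5′ score than intron 6. The 3′ score was 6.24 at intron 5, 2.03 at intron 6 and 0.80 at intron 9, and 1.64% and 0.887% of scored introns had a lower 3′ score than introns 6 and 9. Intron 9 was spliced in 45 of 58 reads uninduced and 14 of 22 induced. Intron 7 scored 8.66 (5′) and 10.5 (3′), with 46.0% and 78.4% of scored introns lower. Intron 8 scored 7.88 and 5.11, with 32.0% and 8.61% lower.

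Intron 6 is annotated in 3 of the 8 transcripts that span it, intron 7 in 4 of 10 and intron 8 in 3 of 10. Annotated 5′ splice sites also lie inside Nop56 introns 1 (intron base 44), 8 (bases 183 and 242) and 11 (base 242). Of these, intron 1 had 159 of 169 reads spliced uninduced and 96 of 98 induced. In intron 6 a second annotated 5′ splice site lies at intron base 31. The whole intron is printed below from a transcript that keeps it, ENSMUST00000150745.8, with the first 2 and last 2 bases and the GT of the inner site in capitals. How reads spliced from the inner site were counted is not given in the sources used here.
Nop56 intron 6: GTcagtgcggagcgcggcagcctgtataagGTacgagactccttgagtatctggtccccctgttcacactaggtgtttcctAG

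The widest difference between the pools within Nop56 was near its end. Intron 10 (chr2:130277971-130278155, 185 nt), which holds Snord57, had 46 of 48 reads spliced uninduced, a coSE of 0.958 (0.860 to 0.989), and 14 of 22 induced, a coSE of 0.636 (0.430 to 0.803). This gave p = 9.71e-04 and an adjusted p of 0.0580 by Fisher's exact test, just outside the threshold; the adjusted p was 0.0235 with a minimum of 20 reads per intron and 0.0199 with a chi-square test, but 0.141 with a minimum of 5 reads, 0.506 with no minimum and 0.0832 with uninduced reads thinned to the induced total. Intron 9, with snoRNA gene Gm23650, had 45 of 58 and 14 of 22 reads spliced (p = 0.257, adjusted p = 1, Fisher's exact test), and intron 11 had 7 of 12 and 7 of 15. In all, 8 of the 11 Nop56 introns had a lower value in the induced pool and 3 a higher one. Intron 10 is printed with Snord57 in capitals to show how much of the intron the snoRNA takes: 72 of its bases, 45 bases from the 5′ splice site and 68 from the 3′ splice site.
Nop56 intron 10: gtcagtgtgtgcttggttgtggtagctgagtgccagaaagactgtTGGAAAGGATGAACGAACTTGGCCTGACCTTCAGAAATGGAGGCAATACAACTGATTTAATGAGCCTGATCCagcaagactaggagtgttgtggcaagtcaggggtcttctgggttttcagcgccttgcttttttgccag

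Npm1 was spliced almost completely in both pools. Its tabulated transcript, ENSMUST00000075641.9, has 10 introns within chr11:33152287-33163206 on the minus strand (mm10), all between coding exons and none with a snoRNA gene. Over all introns 2215 of 2258 observations were spliced uninduced, a coSE of 0.981 (0.974 to 0.986), and 393 of 400 induced, a coSE of 0.983 (0.964 to 0.992). The lowest value uninduced was at intron 4, with 247 of 257 reads spliced, and the highest at intron 6, with 202 of 203. In the induced pool introns 1, 2, 3, 7 and 8 had every read spliced and the lowest value was at intron 10, with 17 of 18. None of the 10 introns passed the test, the smallest p being 0.0628 at intron 6 (adjusted p = 0.702, Fisher's exact test). Read numbers were lower toward the end of the gene, from 347 at intron 1 to 130 at intron 10 uninduced and from 64 to 18 induced. In Nop56 they went from 169 to 12 and from 98 to 15.

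Ncl encodes nucleolin, an abundant RNA-binding protein that acts on early ribosomal RNA. It has 13 introns within chr1:86344719-86359400 on the minus strand (mm10), with Snord82 in intron 5, Gm24148 in intron 11 and Snora75, an H/ACA snoRNA, in intron 12. Over all introns 152 of 169 observations were spliced uninduced, a coSE of 0.899 (0.845 to 0.936), and 72 of 84 induced, a coSE of 0.857 (0.767 to 0.916). Among its introns with at least 10 reads in the pool, intron 1 had every read spliced, 43 of 43 and 23 of 23, as did intron 2 induced, with 16 of 16 (35 of 39 uninduced). Intron 4, of 98 nt, had 14 of 16 and 9 of 16 (p = 0.113, adjusted p = 0.882, Fisher's exact test), and intron 3 had the lowest value uninduced with that many reads, 14 of 18. Intron 13 had 0 of 3 reads spliced uninduced and no read induced. The Snord82 intron had 12 of 14 and 8 of 10, while introns 11 and 12 had 3 and 2 reads uninduced and 0 induced, so the splicing of those snoRNA hosts was not measurable at this depth.

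Gnl3 could be described in the uninduced pool only, where 9 of its 14 introns (chr14:31012433-31019152, minus strand, mm10) had at least 10 reads. Over all introns 171 of 224 observations were spliced uninduced, a coSE of 0.763 (0.704 to 0.814), and 56 of 64 induced, a coSE of 0.875 (0.772 to 0.935). The intervals overlap. Among those 9, the highest was intron 4, with 19 of 20 reads spliced, and the lowest was intron 6, which holds Snord19, with 9 of 17. Its other snoRNA hosts, intron 7 with Gm24916 and intron 9 with Snord69, had 13 of 17 and 9 of 11 reads spliced.

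The remaining genes had few reads, and no intron of theirs could be compared. Nop2, a cytosine methyltransferase for large-subunit ribosomal RNA, had 82 of 93 observations spliced uninduced and 32 of 35 induced; intron 4, the one with 10 reads, had 8 spliced. Nolc1, a chaperone that escorts snoRNPs to the nucleolus, had 36 of 55 and 14 of 14, with 9 of 10 at intron 1. The unspliced Nolc1 observations were unevenly spread: introns 2, 10 and 11, chosen after their values were seen, had 0 of 4, 0 of 2 and 0 of 4 reads spliced uninduced. Nop58, another box C/D core protein, had 31 of 31 and 13 of 16; its tabulated transcript is a noncoding one with 3 introns, and its intron 2, with Snord70, had 12 of 12 and 5 of 6 reads spliced. Dkc1, the pseudouridine synthase of H/ACA snoRNPs, had 12 of 22 and 6 of 6 in a short tabulated transcript with 4 introns; intron 1 had 4 of 10 spliced uninduced. Fbl, the fibrillarin gene, had 2 of 2 in each pool over the 6 of its 8 introns in the table.

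Of these genes' introns, 14 hold an annotated snoRNA gene: 5 in Nop56, 3 in Ncl, 3 in Gnl3, 2 in Ppan and 1 in Nop58. With at least 10 reads and reads added together, coSE was 0.770 (0.734 to 0.802) over 12 host introns and 0.900 (0.890 to 0.910) over 35 other introns in the uninduced pool. In the induced pool it was 0.746 (0.692 to 0.793) over 8 host introns and 0.862 (0.839 to 0.883) over 24 others. Among all introns, again with reads added, hosts and others stood at 0.881 and 0.882 uninduced and at 0.832 and 0.860 induced. Npm1, the gene with the most observations uninduced, holds no snoRNA gene; without it, a comparison added after seeing the data, the difference between hosts and others was 0.03 uninduced, the other direction, and -0.03 induced, in place of -0.13 and -0.12. Within Nop56 the order was the other way in the uninduced pool, with 0.821 for hosts and 0.758 for others, and the 2 were at 0.771 and 0.774 induced. Within Ppan hosts and others had 0.205 and 0.226 uninduced and 0.568 and 0.705 induced, and within Gnl3 0.689 and 0.819 uninduced. Within Ncl they had 0.857 and 0.914 uninduced and 0.80 and 0.873 induced, with 1 host intron. With genes that have both kinds weighted equally, the difference was -0.0290 uninduced (5 genes) and -0.0708 induced (3 genes). As a mean over introns it was -0.0661 uninduced and -0.164 induced. Mean coSE over all introns was also lower at hosts: 0.778 beside 0.856 for others uninduced, and 0.776 beside 0.866 induced. These differences were not tested.

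**Figure D4:**
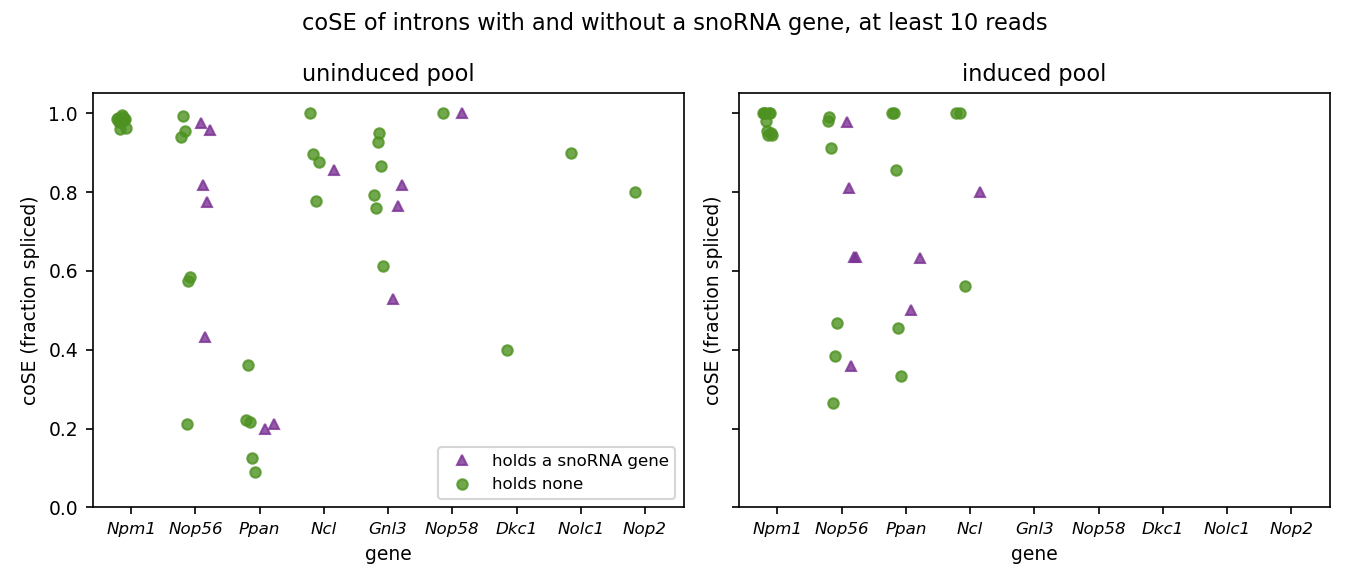
coSE (y axis) of each intron with at least 10 reads, by gene (x axis), for the uninduced pool (left) and the induced pool (right); triangles are introns that hold an annotated snoRNA gene and circles are introns that hold none. Each point is 1 intron; in Nop56 the hosts run from 0.432 to 0.976 uninduced and lie among the other introns.

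The snoRNAs differ in the motifs that mark their class. The letters TGATGA, searched on the strand of the snoRNA, were found in 7 of the 14 snoRNAs, beside 26.5% of the 1558 snoRNAs and scaRNAs in the annotation. The letters ACA starting 6 bases before the end, where H/ACA snoRNAs carry them, were found in Snora75 and in Gm24451, 14.3% of the 14 beside 19.3% of all. Gm24451, in Nop56 intron 5 (chr2:130276237-130276369), is printed with ACA in capitals as the example of that tail in an intron that could be compared. Absence of these exact letters says nothing more than that.
Gm24451: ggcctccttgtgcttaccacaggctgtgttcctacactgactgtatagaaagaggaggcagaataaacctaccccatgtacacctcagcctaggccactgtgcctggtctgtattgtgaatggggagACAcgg

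Splicing intermediates are molecules cut at the 5′ splice site whose reads end at the last base of the exon. NIC, the deposited measure, is intermediates over intermediates plus spliced reads. It was given for 39 introns of these genes uninduced and 25 induced. With reads added, NIC was 2.71% (2.22 to 3.32%) uninduced, from 91 of 3352 reads, and 4.94% (3.65 to 6.65%) induced, from 40 of 810. Over all introns it was 2.71% and 4.35%. With each intron given the same weight, mean NIC was 0.0862 uninduced and 0.0937 induced, beside 0.0431 and 0.0440 over all introns. Such a mean gives full weight to introns with very few reads. Ppan introns 4, 5, 6 and 7 had 1 of 6, 0 of 2, 2 of 5 and 1 of 1 uninduced. At least 1 intermediate was counted at 24 of 39 introns (61.5%) and at 15 of 25 (60%), beside 36.2% and 37.8% of all; these introns also had more reads, with medians of 42 and 21 beside 14 and 14. Of the 23 introns with values in both pools, 9 were higher in the induced pool, 10 lower and 4 equal. By Fisher's exact test adjusted over 2039 introns 0 of the 23 were called, the background being 0.0981%, and 3 had an unadjusted p under 0.05, beside 34 of all 2039. A chi-square test, in place of Fisher's exact test, called 1, Npm1 intron 8, and 3 of all 2039 (0.147%).

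Npm1 and Nop56 carried most of these intermediates. In Npm1 they were 34 of 2192 reads uninduced, a NIC of 1.55% (1.11 to 2.16%), and 15 of 285 induced, a NIC of 5.26% (3.22 to 8.50%). Intron 6 of Npm1 had 4 of 201 and 5 of 32 (p = 0.00305, adjusted p = 0.877, Fisher's exact test). Intron 8 had 0 of 165 (a floor of 3 counts is 1.82%, and the upper Wilson limit of NIC is 0.0228) and 2 of 12 (p = 0.00424, adjusted p = 0.960, Fisher's exact test). In Nop56 they were 46 of 940 and 22 of 475, 4.89% (3.69 to 6.47%) and 4.63% (3.08 to 6.91%).

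Within Nop56 few intermediates were counted before intron 6, and they did not follow coSE intron by intron after it. Introns 1 to 4 had 1 intermediate uninduced, at intron 4, and 0 induced, and intron 5 had 3 of 104 reads and 1 of 49. Intron 6 had the highest NIC of the gene uninduced, 21 of 50 reads or 0.42 (0.294 to 0.558), and 4 of 21 induced (p = 0.102, adjusted p = 1, Fisher's exact test). Intron 7 had 7 of 49 and 7 of 21, and intron 8 had 3 of 29 and 1 of 11. Intron 9, the highest of the gene induced, had 4 of 42 and 8 of 20 (p = 0.0126, adjusted p = 1, Fisher's exact test). Intron 10, spliced in 46 of 48 reads uninduced, had 4 of 43 and 1 of 13, and intron 11 had 3 of 10 and 0 of 6. NIC is a ratio to spliced reads, so an intron with few spliced reads, such as intron 6, has a small denominator. In Ppan the values rest on 1 to 10 reads per intron, for example 2 of 5 and 1 of 7 at intron 6, 1 of 1 and 1 of 3 at intron 7, 1 of 6 uninduced at intron 4 and 0 of 2 and 1 of 5 at intron 5.

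**Figure D5:**
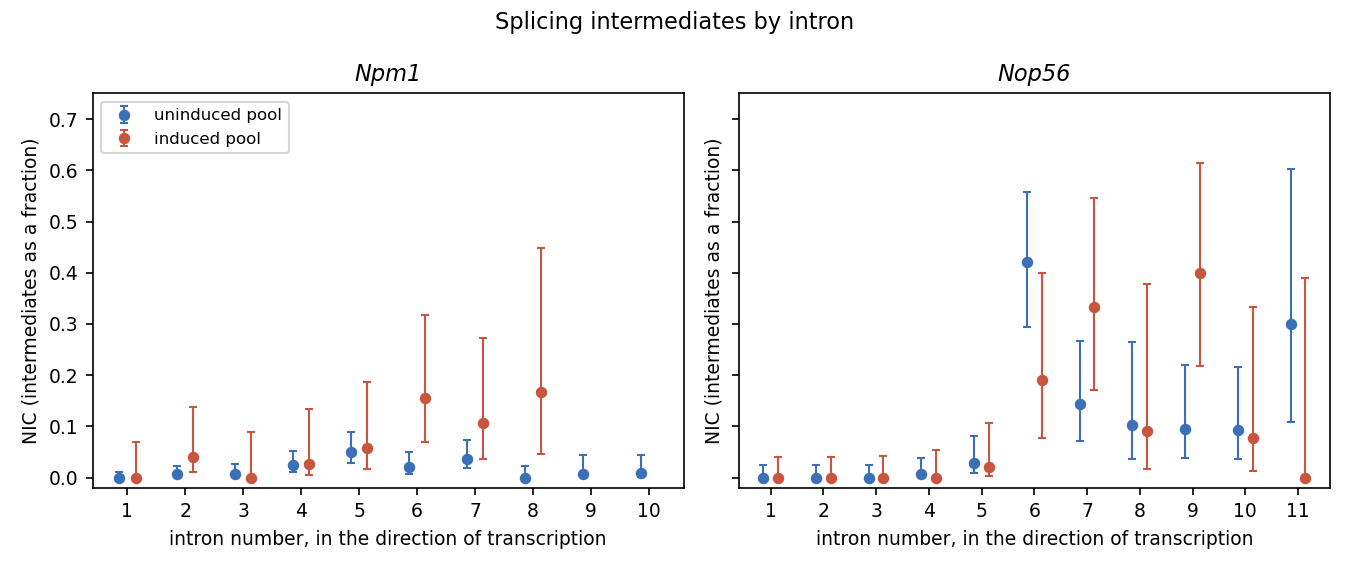
NIC, intermediates as a fraction of intermediates plus spliced reads (y axis), by intron number in the direction of transcription (x axis), for Npm1 (left) and Nop56 (right) in the uninduced and induced pools. Points are pooled values and bars 95% Wilson intervals; Nop56 introns 1 to 4 are at or near 0 in both pools and intron 6 reaches 0.42 uninduced.

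The introns of these genes with at least 10 reads were short beside others. Their median length was 338 nt uninduced and 284.5 nt induced, beside 1056.5 nt and 937 nt for all introns. Introns of up to 100 nt were 5 of 47 uninduced, or 10.6%, beside 7.01% of all. Across the 47 introns the rank correlation (Spearman) between length and coSE was 0.397, and across all introns 0.372; introns of a gene share reads and are not independent replicates. The median deposited splice site scores were 8.86 (5′) and 8.13 (3′) uninduced, beside 8.78 and 8.69. Rank correlations of coSE with these features, uninduced, rest on the 40 introns scored, beside 5986 of all. They were -0.412 for GC content beside -0.0928, 0.235 for the 5′ score beside 0.0468, and 0.120 for the 3′ score beside 0.112. For GC content in the induced pool the values were -0.254 and -0.128. None of these correlations was tested.

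Other ribosome biogenesis genes were compared in the same way. In a list of 98 such genes, 89 had an intron in the table and 17 had an intron with enough reads, 54 introns in all. Of those 54 introns, 20 were higher in the induced pool, 22 lower and 12 equal, and 0 passed the test in either direction, beside 1.61% of all introns, a share at which a list of this size would hold few or no calls. An unadjusted p under 0.05 was found at 1 of the 54 (1.85%), beside 7.97% of all introns: Polr1c intron 3 (chr17:46245749-46246106), with 15 of 15 and 8 of 12 reads spliced (p = 0.0282, adjusted p = 0.482, Fisher's exact test). Over all introns of the list with at least 10 reads in a pool, coSE with reads added was 0.873 (0.860 to 0.884) in 197 introns of 42 genes uninduced and 0.850 (0.829 to 0.869) in 81 introns of 22 genes induced, which are different sets of introns. Of 20 introns of the list with intermediates counted in both pools, 0 were called by Fisher's exact test on NIC, beside 0.0981% of all introns.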

How the data were processed

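Nascent chromatin RNA of 8 long-read libraries (4 uninduced, 4 induced) was analysed from 2 deposited tables that hold 1 line per intron and group. Each line is a pool of libraries, and which replicates and instruments were added is not given in the sources used here. The submitters' processing notes name cutadapt, minimap2, SAMtools, bedtools and Bowtie, without versions, and the builds mm10 and dm3. Per the file headers, the first table holds counts of spliced and unspliced reads. The second holds, per the file headers, counts of spliced reads and of splicing intermediates, NIC as a fraction deposited by the authors, GC content in percent, intron length and splice site scores; the program behind the deposited scores is not given in the sources used here. The spliced count in the second table was lower than in the first in 95.1% of lines; why is not stated.

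Transcripts were matched to GENCODE mouse release 21 (GRCm38, the mm10 assembly). Introns were placed on annotated introns in 99.96% of lines, numbered in the direction of transcription, and positions are 1-based. No gene other than snoRNA genes overlapped these introns except a miRNA gene in Ncl intron 11. coSE was computed as spliced over spliced plus unspliced reads. coSE was compared at introns with at least 10 reads in both pools, and NIC at all introns with values in both, by two-sided Fisher's exact tests with Benjamini-Hochberg adjustment over all introns compared (threshold 0.05; Python 3.11.15, scipy 1.17.1). The script was tested on simulated data. Shares were taken of all intron observations in a pool.

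The genes are picked by symbol alone, but the genes and lists were drawn up with earlier results of these data known. All 10 genes are named. Introns are named where a test or an unadjusted p under 0.05 pointed to them, or coSE was the highest or lowest of the gene. They are also named where NIC was among the 5 highest or a snoRNA gene lies in them. Other introns are named as the deepest of their gene, as neighbours of a named intron, or to give read counts. Alternatives were other minimums of 5 and 20 reads or none, a chi-square test, thinning of the uninduced reads, introns in every spanning transcript, other ways of averaging, and leaving out genes.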

Additional observations from a re-analysis of the deposited data

How the results depend on the processing

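No paired analysis was possible because each group has 1 pooled line per intron. For the same reason no replicate could be left out. The call at 1 of these genes' introns by coSE stood at 1 with minimums of 5 and 20 reads, with no minimum and with thinned uninduced reads (0.433%, 5.11%, 0.0856% and 1.63% of all introns called, beside 1.61% at 10 reads), but with a minimum of 20 reads the intron called was Nop56 intron 10 and not Ppan intron 2, which has under 20 reads per pool, so the call was for lower and not higher coSE. The chi-square test called 2 introns (both of these; 2.25% of all), and restricting to introns in every spanning transcript called 0 of 16 (1.105% of all), since neither intron is in that set. The chi-square test called 1 intron by NIC, Npm1 intron 8, in place of 0; that intron had 2 intermediates in all, and 0.147% of all introns were called. coSE with reads added together moved to 0.744 (uninduced) and 0.792 (induced) as a mean over introns, to 0.899 uninduced with a minimum of 20 reads, to 0.751 and 0.763 without Npm1 and to 0.924 and 0.902 without Nop56. The ratio of read shares, 0.489, was 0.460 outside globin and ribosomal protein genes and 0.748 without Npm1. The uninduced difference between snoRNA hosts and other introns moved from -0.131 to -0.0661 as a mean over introns, to -0.0290 within genes and, reversed, to 0.0293 without Npm1. The induced one, -0.117, was -0.164, -0.0708 and -0.0267 in turn. The pools' order in coSE with reads added, lower induced, was the other way as a mean over introns and without Npm1. Depth limits the comparison to 31 of 98 introns, and 6 of the 10 genes had no intron that could be compared.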
